A study of Homo sapiens with 4 samples.

Results

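The strongest crosslink sites of PDCD4 in MCF10A cells were the listed sites with a score above 10. They numbered 282 of the 158922 sites in the PDCD4 list, a share of 0.177%, and they were chosen by that score, the number of cDNAs assigned to 1 nucleotide. MCF10A is an established, non-transformed breast epithelial line, and all samples came from wild-type cells of this line grown in the same supplemented medium. iCLIP was performed with PDCD4 antibody in 2 replicates and with control IgG in 2 replicates, and the deposited data hold 1 pooled list per antibody. Since no value per replicate was given, there was no spread between replicates and no test between PDCD4 and IgG, and the intervals below are 95% Wilson intervals that cover counting error only. cDNAs that come from 1 stretch of RNA are not independent, so the intervals are narrower than the true uncertainty. The summed score of the list was 409308 cDNAs for PDCD4 and 276139 for IgG. The 8 markers fixed for breast epithelial cells each had listed PDCD4 sites, with summed scores from 3 for KRT14 to 808 for KRT7, whereas the 3 leukocyte and 3 endothelial markers had none.

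PDCD4 is a tumour suppressor and RNA-binding protein, known for binding the helicase eIF4A and for restraining translation. In iCLIP, UV light cross-links protein to RNA, the protein is immunoprecipitated, and the cDNA made from the attached RNA tends to stop next to the cross-linked nucleotide. A score is therefore a count of molecules and follows both the amount of an RNA and how readily it was cross-linked, which cannot be told apart here because RNA abundance was not analysed.

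Scores of the 282 sites ran from 11 to 87, with a median of 15 and an upper quartile of 20. Together they held 5268 cDNAs, 1.29% of the summed score of the list. Of these sites, 164 had scores of 11 to 15, 48 of 16 to 20, 36 of 21 to 30 and 34 above 30. Just inside the threshold, 58 sites had a score of 11, of which 35 lay in mRNA exons and 16 in mitochondrial rRNA. Just outside it, 91 sites had a score of 10, of which 51 lay in mRNA exons and 17 in mitochondrial rRNA. In the IgG list only 7 sites exceeded 10.

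The sequence around the highest-scoring site of the genes that held at least 2 such sites, other than PLEC, is given here, so that the bases at the site can be read directly. Sequences are 21 nt of the transcribed strand (GRCh38), 5′ to 3′, written as DNA, and the capitals mark the listed nucleotide and the nucleotide that follows it. In 14 of these 20 sequences the second capital is an adenine. Sites in rRNA, in small nucleolar RNA and in the intron of RYR2, which matched rRNA, come first.
MT-RNR2, chrMT:2212-2232, plus strand: caacacccacTAcctaaaaaa
MT-RNR1, chrMT:692-712, plus strand: cacatgcaagCAtccccgttc
RNA5-8SP6, chrY:10200204-10200224, plus strand: tagctgtgagAAttaatgtga
RNA5-8S5, chr21:8212643-8212663, plus strand: ttgcaggacaCAttgatcatc
CH507-513H4.1, chr21:8216335-8216355, plus strand: gagcgccgttCTgaagggacg
CH507-528H12.1, chr21:8401678-8401698, plus strand: ggtcccccgcCTgtccccgcc
RYR2, chr1:237603165-237603185, plus strand: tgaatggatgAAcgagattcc
SNORD118 and TMEM107, chr17:8173531-8173551, minus strand: ggagggcagaTTagaacatga
SNORD3A, chr17:19188066-19188086, plus strand: ctctgaacgtGTagagcaccg
The sequences from other protein-coding genes follow, of which that of SYT8 lies in an exon of its non-coding transcripts. They show the adenine after most sites and the uridine run of EIF5A.
VIM, chr10:17235263-17235283, plus strand: agattcagaaTAtgaaggagg
HSP90AA1, chr14:102084934-102084954, minus strand: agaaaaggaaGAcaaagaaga
EIF5A, chr17:7312116-7312136, plus strand: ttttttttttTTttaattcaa
KRT7, chr12:52248703-52248723, plus strand: cctgaaggctTAttccatccg
ACTB, chr7:5527564-5527584, minus strand: acagcagtcgGTtggagcgag
SYT8, chr11:1836315-1836335, plus strand: tggacggctgGAtgggcctgg
GAPDH, chr12:6537666-6537686, plus strand: tccagaacatCAtccctgcct
SLC7A5, chr16:87830115-87830135, minus strand: ggaccttcttTAttctgtgtt
HSP90AB1, chr6:44250410-44250430, plus strand: tgaggaggatGAcagcggtaa
HSPD1, chr2:197497368-197497388, minus strand: gaacagtgatTAttgagcaga
KRT5, chr12:52514707-52514727, minus strand: tcaggtttccCAcagcatggc

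Mitochondrial rRNA held 135 of the 282 sites (47.9%, 42.1% to 53.7%), and exons of mRNA held 102 (36.2%, 30.8% to 41.9%). With only 1 site kept per cluster the order was reversed, with 17.6% in mitochondrial rRNA and 59.6% in mRNA exons. Nuclear rRNA held 15 sites (5.32%), small RNAs 10 (3.55%), introns of protein-coding genes 8 (2.84%), lncRNAs 4 and non-coding exons of protein-coding genes 4. The 3 further mitochondrial sites lay in MT-CO1, MT-CO2 and MT-TV, and 1 site was outside annotated genes. Among PDCD4 sites with scores of 6 to 10, mitochondrial rRNA made up 3.91% (3.16% to 4.83%), mRNA exons 60.4% and introns of protein-coding genes 22%. Among sites with scores of 1 to 5, mitochondrial rRNA made up 0.0766% and introns of protein-coding genes 47.5%. From the lowest to the highest scores, the intron share thus became smaller and the share of mitochondrial rRNA larger. Among the 768 IgG sites with a score above 5, mitochondrial rRNA made up 1.43% (0.802% to 2.55%), introns of protein-coding genes 42.6% and lncRNAs 12.1%.

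**Figure D1:**
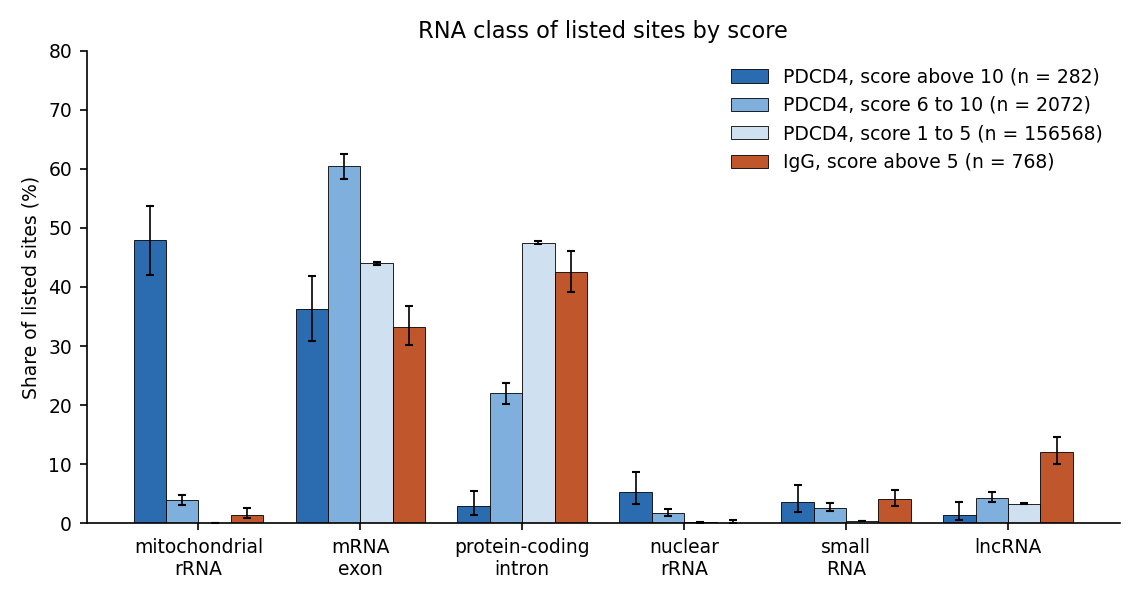
Bars give the share of listed sites (%) in 6 RNA classes for PDCD4 sites above 10, from 6 to 10 and from 1 to 5, and for IgG sites above 5, with 95% Wilson intervals. Mitochondrial rRNA held 47.9% of PDCD4 sites above 10 and 3.91% of those from 6 to 10, and protein-coding introns fell from 47.5% to 2.84% between the lowest and the highest scores.

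By annotated region, 154 sites lay in ncRNA (54.6%, 48.8% to 60.3%), 76 in CDS (27.0%, 22.1% to 32.4%), 34 in 3′UTR (12.1%, 8.76% to 16.4%), 17 in introns (6.03%) and none in 5′UTR, which allows a 5′UTR share of up to 1.34%. Over the whole PDCD4 list the shares were 5.96% in ncRNA, 20.9% in CDS, 21.1% in 3′UTR, 49.6% in introns and 2.37% in 5′UTR. The region names hide some of the RNA classes. Of the 17 intronic sites, 8 lay in precursors of nuclear rRNA that are annotated as introns of lncRNA genes, and 6 of the 34 sites in 3′UTR overlapped SNORD118, which lies in the 3′UTR of TMEM107. With ncRNA exons taken before coding sequence, 68.8% of the sites lay in ncRNA.

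The 282 sites carried the labels of 53 genes, of 12912 genes with any listed PDCD4 site (0.41%), and 22 of these genes held 2 or more. MT-RNR2 held 127 sites (45%, 39.3% to 50.9%) and PLEC held 46 (16.3%, 12.5% to 21.1%), so that 109 sites were left for the other 51 genes. Weighted by score, MT-RNR2 held 56.4% of the cDNAs of these sites and PLEC 13.5%. MT-RNR2 also supplied 18 of the 20 highest scores, and the other two were sites of PLEC and RYR2. After these came ACTB with 12 sites, MT-RNR1 with 8, EIF5A with 7, and TMEM107 and the lncRNA gene CH507-513H4.1 with 6 each. HSP90AA1 held 5, and VIM, SYT8, SNORD118, RNA5-8SP6 and CH507-528H12.1 held 4 each. KRT7 and SNORD3A held 3 each, and GAPDH, HSP90AB1, HSPD1, KRT5, RNA5-8S5, RYR2 and SLC7A5 held 2 each.

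**Figure D2:**
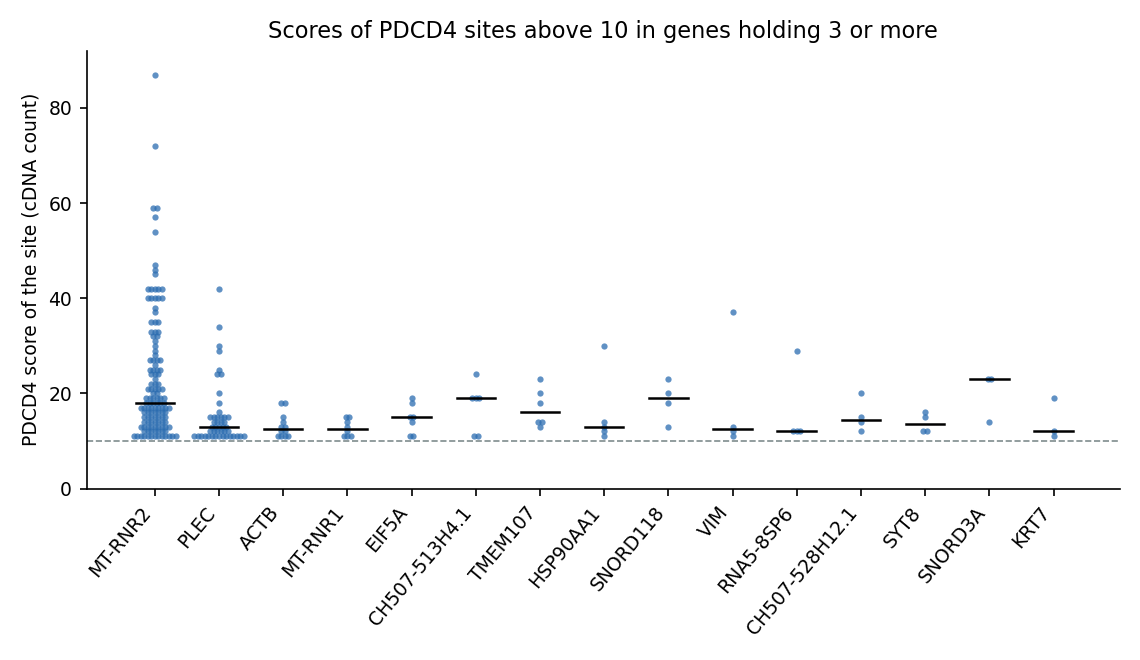
Each point is a PDCD4 site above 10 and its height is the score (cDNA count), for the genes with 3 or more such sites, with black lines at the medians and a dashed line at the threshold of 10. MT-RNR2 spans 11 to 87 with a median of 18, while ACTB and MT-RNR1 stay at or below 18 and 15. Sites with the labels of 2 genes are drawn for both.

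MT-RNR2, the rRNA of the large subunit of the mitochondrial ribosome (chrMT:1671-3229), held sites from position 1694 to 3156 of the mitochondrial genome, within its 1559 nt. Of its 268 listed sites, 127 scored above 10, 65 scored 6 to 10 and 76 scored 1 to 5, so that 47.4% of its listed sites and 8.15% of its nucleotides were in the top group. Per kb this was 81.5 sites, compared with 8.39 in MT-RNR1, 6.62 in the canonical ACTB transcript and 3.04 in that of PLEC. The highest score was 87 at position 2222, followed by 72 at position 2706 and 59 at positions 2242 and 2710. The sites fell into 19 clusters that together spanned 423 nt, if gaps of up to 20 nt are joined, and 18 of these clusters held 3 or more sites. The largest cluster ran from position 2193 to 2258, with 20 sites and 537 cDNAs, and the next ran from 2361 to 2412 with 13 sites and 315 cDNAs. No site scored above 10 between positions 2484 and 2632, the widest gap of 148 nt. The density was lowest at the 3′ end, where the last 159 nt held 1 such site, with a score of 40 at position 3156, compared with 27 sites in the 200 nt from 2671 to 2870. All 138 mitochondrial sites lay on the strand that carries both rRNAs.

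MT-RNR1, the rRNA of the small subunit of the mitochondrial ribosome, had lower scores. Its 8 sites scored 11 to 15, against a median of 18 and a maximum of 87 in MT-RNR2, and they held 102 of the 344 cDNAs listed for the gene. The neighbouring MT-TV, a mitochondrial tRNA that lies just before MT-RNR2, held 1 site with a score of 13 at its 3′ end. MT-CO1 and MT-CO2, which encode subunits of cytochrome c oxidase, held 1 site each with a score of 11. Over all listed sites, MT-RNR2 carried 91.4 of every 10000 PDCD4 cDNAs and 1.99 of every 10000 IgG cDNAs, while MT-RNR1 carried 8.4 and 4.45.

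**Figure D3:**
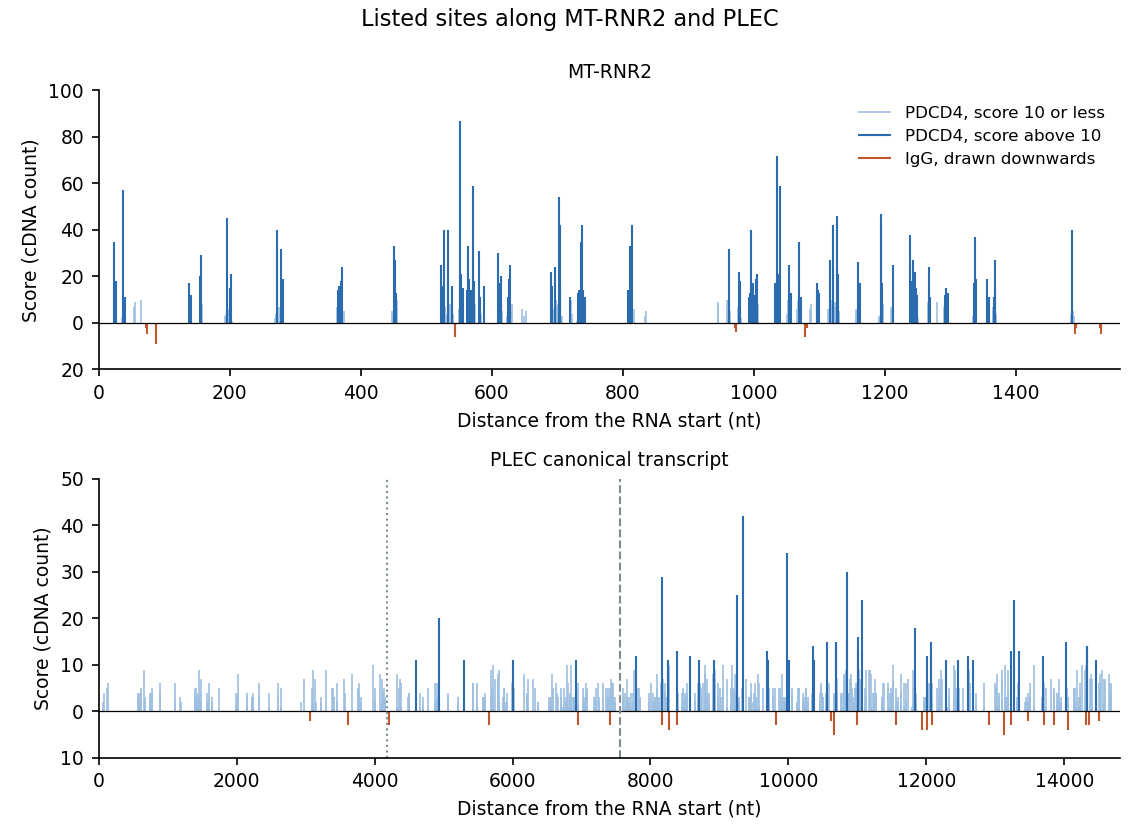
Vertical lines give the score (cDNA count) of every listed site along MT-RNR2 and along the exons of the canonical PLEC transcript, by distance from the RNA start (nt), with IgG scores drawn downwards. In MT-RNR2 the sites above 10 form dense clusters with a peak of 87, and IgG scores stay at or below 9. In PLEC no site above 10 lies before the dotted line, where exon 31 begins, and 40 lie after the dashed line, where exon 32 begins.

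Nuclear rRNA was reached through several labels. The lncRNA genes CH507-513H4.1 and CH507-528H12.1 held 10 sites in copies of the rRNA precursor on chromosome 21, with scores of 11 to 24. By RefSeq, 6 of these lay in the large-subunit rRNA (RNA28SN2 or RNA28SN3), 2 in RNA5-8SN2, labelled RNA5-8S5 in the list, and 2 in transcribed spacers. RNA5-8SP6, an rRNA pseudogene on chromosome Y, held 4 adjacent sites with scores of 29, 12, 12 and 12. The 30 nt that follow each of these 4 sites matched RNA5-8SN1 on chromosome 21 without a mismatch, so the pseudogene and the rRNA gene cannot be told apart. RNA5SP202, a pseudogene of the smallest rRNA, held 1 site with a score of 18 and is counted here by its label.

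A further 5 sites, which were labelled as introns, also matched nuclear rRNA. The 30 nt after the sites of RYR2 with scores of 41 and 15 matched RNA28SN1 with 0 and 1 mismatches, as did those after the site of LLNLF-96A1.1 (score 16, 0 mismatches), AAMDC (score 12, 1 mismatch) and PID1 (score 13, 1 mismatch). The sites of RYR2 and AAMDC lie on different chromosomes, yet their sequences aligned to the same stretch of the precursor RNA45SN1, with the nucleotide after each site at positions 11746, 11732 and 11721. RYR2 encodes a calcium release channel of heart muscle, and its 12 listed sites held 89 cDNAs, 62.9% of them in these 2 sites. Of the 8 sites in introns of protein-coding genes, 4 were of this kind, and the others lay in KRT7, MUC1, GPI and PLEC. The site labelled MTRNR2L1 (score 12) matched MT-RNR2 with 1 mismatch. Counting sites by rRNA label or by such a match, 156 of the 282 sites (55.3%) lay in rRNA of the nuclear or the mitochondrial genome. Which copy the cDNAs came from was not tested.

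The 10 sites in small RNAs lay in 3 RNAs. SNORD118, a small nucleolar RNA that acts in maturation of the large-subunit rRNA, overlapped 6 sites within 27 nt, with scores of 13, 14, 14, 18, 20 and 23. These sites carried the label of TMEM107 or of both genes, and SNORD118 and the 3′UTR of TMEM107 cannot be told apart by position. TMEM107, a protein of the ciliary transition zone, had 188 listed cDNAs, of which 54.3% were in these 6 sites. SNORD3A, a small nucleolar RNA needed for processing of the small-subunit rRNA, held 3 sites within 9 nt with scores of 14, 23 and 23. RNU6-34P, a pseudogene of a spliceosomal RNA, held 1 site with a score of 12, and the 30 nt after it occurred at 32 places of the genome. The IgG list had its highest scores in other small RNAs, those of Cajal bodies. Of its 7 sites above 10, those in SCARNA2 scored 22 and 15, that in SCARNA7 (inside KPNA4) 18 and that in SCARNA9 (inside CEP295) 11. The remaining 3 were in MALAT1 (12), HPCAL1 (11) and HDGF (11). No PDCD4 site above 10 lay within 10 nt of any of the 7, but such sites made up only 0.177% of the PDCD4 list. Lower-scoring PDCD4 sites lay within 10 nt of the SCARNA7 site (2, highest score 8) and of the MALAT1 site (3, highest score 3). The nuclear lncRNAs NEAT1 and MALAT1 held no PDCD4 site above 10.

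PLEC encodes plectin, the large linker that ties intermediate filaments to adhesions and to actin. Its 46 sites scored 11 to 42 with a median of 13, and 41 lay in CDS, 4 in 3′UTR and 1 in an intron. They made up 4.33% of the 1062 listed PLEC sites, compared with 0.177% over all genes. Such a share was not particular to PLEC, as sites above 10 were 12 of 292 listed sites in ACTB and 7 of 102 in EIF5A. In HSP90AA1 the share was smaller, at 5 of 266. The distribution along the PLEC transcript was uneven. Exon 32, the last, codes for the C-terminal plakin repeats and ends with the 3′UTR, and it held 40 of the 46 sites (87.0%) in 48.9% of the transcript length. Exon 31, which codes for the coiled-coil rod, held 5 in 22.8% of the length, and exons 1 to 30 held none in 28.2%. The PLEC sites that scored 10 or less were also denser towards the end, with 30.9 per kb in exons 1 to 30, 52.1 in exon 31 and 85.9 in exon 32, which held 61.2% of them. IgG sites followed the same order of density, with 0.718, 1.18 and 3.31 per kb, but 30 of the 61 IgG sites of PLEC lay outside the canonical exons. The highest PLEC scores were 42, 34, 30 and 29, all in exon 32, and the highest in exon 31 was 20.

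In coding sequence the middle base of the codon held the fewest sites. Of the 76 sites in CDS, 31 lay at the first codon position, 11 at the second (14.5%, 8.28% to 24.1%) and 34 at the third (44.7%, 34.1% to 55.9%). In PLEC, which held 41 of these CDS sites, the second position held 17.1% of sites above 10 (8.53% to 31.3%). It held 23.3% of PLEC sites scoring 10 or less (20.6% to 26.3%), and these intervals overlap. Outside PLEC it held 4 of 35 sites (11.4%, 4.54% to 26.0%). Codon shares over all listed CDS sites were not computed. Of the 102 sites in mRNA exons, all downstream of an intron, 2 lay in the first 10 nt of their exon and 8 in the first 50 nt. None of these was in PLEC, whose exonic sites lie in exons of 3381 and 7243 nt. Outside PLEC, 8 of 57 sites (14.0%, 7.29% to 25.3%) lay in the first 50 nt. The share over all listed exonic sites was not computed.

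Besides PLEC, several cytoskeletal mRNAs held sites. For comparison with the gene lists, 53 of all 12912 genes with a listed site (0.41%) held a site above 10. Of the intermediate filament and plakin genes, 5 of 26 with a listed site (KRT5, KRT7, KRT81, PLEC and VIM) held 56 sites, 46 of them in PLEC, and of the actin cytoskeleton genes 3 of 14 (ACTB, FLNA and MYH9) held 14. ACTB, cytoplasmic beta-actin, held 7 sites in CDS and 5 in 3′UTR, with scores between 11 and 18 and a median of 12.5. VIM encodes vimentin, and its 4 CDS sites scored 11, 12, 13 and 37, of which the first 2 lie 3 nt apart and the strongest 30 nt downstream in the same exon. The keratin genes stayed lower, at 11, 12 and 19 in KRT7, 11 and 11 in KRT5 and 14 in KRT81, and the site of KRT7 with a score of 12 was intronic. The matrix and adhesion list had sites above 10 in 2 of its 58 genes with a listed site, MUC1 and THBS1, each with a score of 11. Of the solute carriers, SLC7A5, an amino acid transporter, held 2 sites in its 3′UTR (12 and 13) and SLC3A2 held none.

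Translation factors and chaperones formed the other groups with several members. Here too the share over all genes with a listed site was 0.41%. Of 177 translation genes with a listed site, 6 held 12 sites, and 7 of these were in EIF5A, a factor that helps ribosomes through difficult peptide bonds. Of the 7 EIF5A sites, 6 lay within 13 nt of its 3′UTR with scores of 11, 14, 15, 15, 18 and 19, and 5 of them sat inside a run of 20 uridines. EEF1A1, EEF2, RPL4, RPL5 and RPL35A held 1 site each, with scores of 11 to 15. Of 26 chaperone genes, 3 held 9 sites: HSP90AA1 and HSP90AB1, the cytosolic HSP90 proteins, and HSPD1, the mitochondrial chaperonin. HSP90AA1 had 5 CDS sites scoring 11, 12, 13, 14 and 30, whereas both sites of HSP90AB1 (11 and 12) and of HSPD1 (11 and 12) were at the threshold. GAPDH, a glycolytic enzyme, held 2 CDS sites scoring 12 and 15. SYT8, a synaptotagmin, held 4 sites scoring 12, 12, 15 and 16, 3 of them in exons of its non-coding transcripts. Among genes with a single site, named here after their values were seen, the highest scores were in LRRC75A-AS1, a lncRNA now named SNHG29 (25), and PFN1, which encodes the actin-binding profilin (19).

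Most of the sites had a neighbour of the same kind. Of the 282, 188 (66.7%, 61% to 71.9%) lay within 20 nt of another site above 10 on the same strand, and they fell into 136 clusters, of which 94 were single sites, 17 were pairs and 25 held 3 or more. MT-RNR2 dominated this figure, since 126 of its 127 sites (99.2%) had such a neighbour. In PLEC it was 17 of 46 (37.0%, 24.5% to 51.4%), and outside the mitochondrial genome 57 of 144 (39.6%, 32% to 47.7%). Among PDCD4 sites with scores of 6 to 10, 17.1% (15.6% to 18.8%) lay within 20 nt of another site of that range. Counting any listed site as a neighbour, 274 of the 282 (97.2%) had one within 20 nt, with a median of 9, compared with 53.5% of sites from 6 to 10 (median 1) and 24.8% of sites from 1 to 5. Outside the mitochondrial genome the clusters were small, with 6 sites at most, in SNORD118 and EIF5A. Their sites also stood out more from their surroundings, as the site held a median of 50% of the cDNAs listed within 10 nt and 121 of 144 had the highest score in that window. In MT-RNR2 the site held a median of 18.6% and 36 of 127 had the highest score.

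The most uneven base was not at the listed nucleotide but directly after it. Adenine followed the listed nucleotide in 55.0% of the 282 sites (49.1% to 60.7%) and guanine in 2.48% (1.21% to 5.03%). The adenine share was 62.5% (54.4% to 70.0%) outside the mitochondrial genome, 78.3% (64.4% to 87.7%) in PLEC and 44.9% (36.5% to 53.6%) in MT-RNR2, whose whole sequence is 35.1% adenine. With 1 site per cluster it was 67.6% (59.4% to 74.9%). It was 48.9% (46.7% to 51.0%) in PDCD4 sites from 6 to 10 and 36.8% (36.5% to 37.0%) in sites from 1 to 5. The same position was adenine-rich and guanine-poor in the IgG list, with 39.7% adenine (36.3% to 43.2%) and 3.26% guanine among IgG sites above 5. Within the same genes, PLEC sites scoring 10 or less had 43.9% adenine there (40.9% to 47.0%), and those of all nuclear genes in the group had 37.7% (36.4% to 39.1%), both below the intervals of the sites above 10. In MT-RNR2, sites scoring 10 or less had 33.3% (26.1% to 41.5%), an interval that overlaps that of the sites above 10. This position was chosen for description after the base profiles had been seen.

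**Figure D4:**
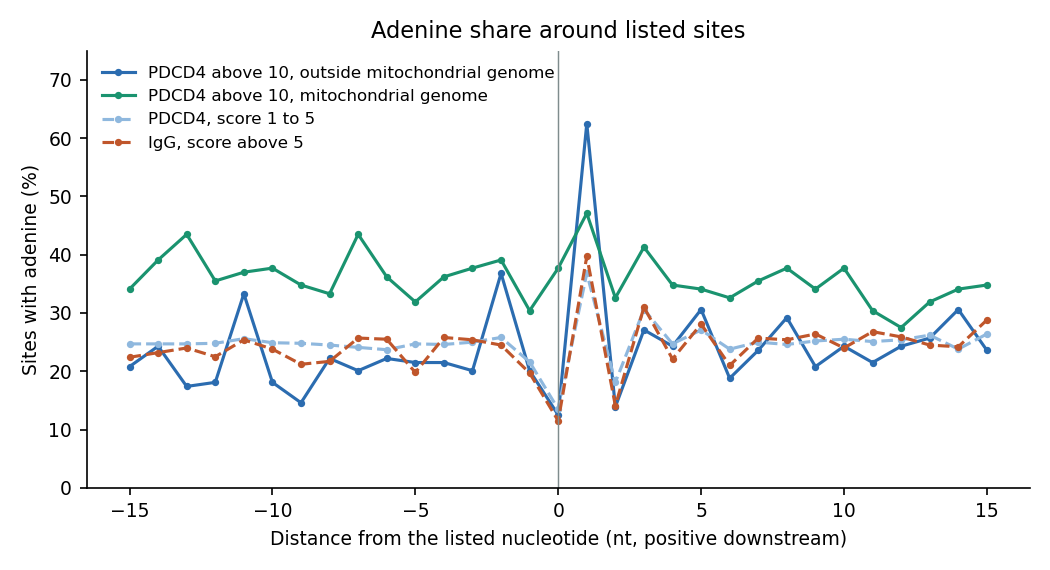
Lines give the share of sites (%) with adenine at each distance from the listed nucleotide (nt, positive downstream), for PDCD4 sites above 10 outside and on the mitochondrial genome, PDCD4 sites from 1 to 5 and IgG sites above 5. All 4 groups peak 1 nt downstream, at 62.5%, 47.1%, 36.8% and 39.7%.

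At the listed nucleotide itself, 34.0% of the 282 sites were cytosine (28.8% to 39.8%), 29.1% uridine (24.1% to 34.6%), 24.8% adenine and 12.1% guanine. Over the whole list uridine was more frequent at lower scores, with 39.9% (37.8% to 42.0%) from 6 to 10 and 46.8% (46.5% to 47.0%) from 1 to 5. Among IgG sites above 5 it was 44.5%. Within the same genes the uridine shares did not separate by score. For nuclear genes it was 34.0% (26.8% to 42.1%) above 10 and 34.4% (33.1% to 35.8%) at 10 or less. In PLEC it was 19.6% (10.7% to 33.2%) and 23.7% (21.2% to 26.4%), and in MT-RNR2 23.6% (17.1% to 31.7%) and 19.9% (14.1% to 27.2%). In PLEC, cytosine took 60.9% of the sites above 10 (46.5% to 73.6%) and 37.1% of those at 10 or less (34.2% to 40.1%). Outside the mitochondrial genome the listed nucleotide and the 2 that follow it read CAC, CAU, UAC or UAU in 70 of 144 sites (48.6%, 40.6% to 56.7%). This share was 11.6% (7.26% to 18%) on the mitochondrial genome, 35.3% (33.3% to 37.4%) for PDCD4 sites from 6 to 10, 23.1% (22.8% to 23.3%) from 1 to 5 and 28% (24.9% to 31.3%) for IgG sites above 5. These triplets combine the most frequent bases of the same 144 sites at these positions, so a high share in them was favoured by the choice. Lower-scoring sites of the same genes were not counted for the triplets. The letters were read on the transcribed strand at this position only, and a match is a description and not a binding site.

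GC content over the 21 nt centred on the site was 46.1% ± 16 (SD, n = 282). It was 40.2% ± 11.2 (SD, n = 127) in MT-RNR2, close to the 42.8% of the whole RNA, and 59.3% ± 11.1 (SD, n = 46) in PLEC, whose canonical transcript has 66.8%. Sites of the same genes that scored 10 or less had 40.3% ± 11.9 (SD, n = 141) and 61% ± 10.8 (SD, n = 1016), so the windows differed by gene and, within a gene, by less than the spread over sites. Sites in CDS had 54.8% ± 12.5 (SD, n = 76) and sites in 3′UTR 39.8% ± 22.3 (SD, n = 34). The extremes were the SET site and 3 EIF5A sites inside uridine runs, at 0%, and a spacer site of CH507-513H4.1, at 95.2%. All 11 sites inside a run of at least 5 uridines were in 3′UTR. The 282 sites as a whole lay between the PDCD4 sites from 1 to 5, at 42.2% ± 16.4 (SD, n = 156568), and those from 6 to 10, at 49.9% ± 15.6 (SD, n = 2072).

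IgG sites lay near a minority of the sites, though more often than over the whole PDCD4 list. Over the whole PDCD4 list, 4.56% of sites had a listed IgG site within 10 nt on the same strand, and among the 282 it was 43 (15.2%, 11.5% to 19.9%). For PDCD4 sites from 6 to 10 it was 14.2% (12.8% to 15.8%), an overlapping interval. Within the same genes the shares did not separate by score. Outside the mitochondrial genome 20.1% of the sites above 10 (14.4% to 27.4%) and 18.8% of the other sites of those genes (17.8% to 19.9%) had an IgG neighbour. In PLEC these shares were 10.9% (4.73% to 23%) and 6.2% (4.88% to 7.86%), and in MT-RNR2 8.66% (4.91% to 14.8%) and 13.5% (8.8% to 20.1%). IgG positions had been removed from each PDCD4 library ahead of peak calling, according to the methods, which lowers overlap at the identical nucleotide. Even so, 3 of the 282 positions were listed for IgG too, in RPL4, EIF5A and MT-CO2.

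**Figure D5:**
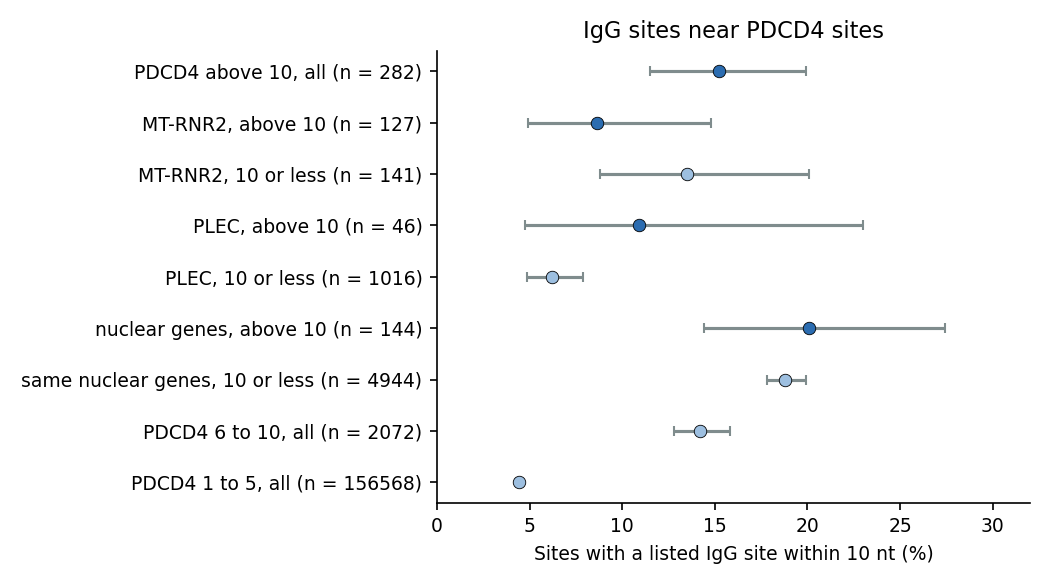
Points give the share of PDCD4 sites (%) with a listed IgG site within 10 nt on the same strand, with 95% Wilson intervals. The share was 15.2% for all sites above 10 and 4.41% for sites from 1 to 5, while within MT-RNR2, PLEC and the nuclear genes as a whole the intervals above and at or below the threshold overlap.

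Where IgG was listed nearby, its scores stayed below those of the PDCD4 sites, which were chosen to be high. An IgG score above 5 lay within 10 nt of 8 of the 282 sites, all in mitochondrial rRNA. Over the whole PDCD4 list this was true of 261 of 158922 sites. The highest single IgG score within 10 nt of any of the 282 sites was 9, near MT-RNR1, and the highest sum was 10, near a SLC7A5 site that scored 13. In none of the 282 windows did the summed IgG score reach the score of the PDCD4 site. This was largely set by the choice of high PDCD4 scores, since only 7 sites in the IgG list exceeded 10. ACTB had an IgG neighbour at 7 of its 12 sites, EIF5A at 4 of 7, HSP90AA1 at 3 of 5, SNORD3A at 2 of 3 and MT-RNR1 at 2 of 8. None was found at the sites of VIM, KRT7, SYT8, RNA5-8SP6, GAPDH, HSP90AB1, HSPD1, KRT5 or RYR2. Of the 6 sites that overlap SNORD118, all labelled TMEM107, 1 had an IgG neighbour. The 4 of them that also carry the SNORD118 label had none. The windows of all 282 sites covered 3522 nt and held 7699 PDCD4 cDNAs, or 188 of every 10000, and 143 IgG cDNAs, or 5.18 of every 10000. Of these PDCD4 cDNAs, 5268 were the scores by which the sites had been chosen, so the contrast follows in large part from that choice. The genes were also chosen through high PDCD4 scores, so their values without the sites above 10 are not free of that choice. Without its sites above 10, MT-RNR2 carried 18.8 of every 10000 PDCD4 cDNAs against 1.99 for IgG, PLEC 87.2 against 6.99 and VIM 12.8 against 0.471. KRT7 and SLC7A5 were closer, at 18.7 against 9.67 and 24.2 against 12.7. In 6 of the 53 genes, each with a single site above 10, the IgG value was at least as high. They were MT-CO1 (4.4 against 6.05), PID1 (3.32 against 3.62), P3H2 (1.22 against 1.48), CYTH2 (0.88 against 0.905), KCNIP3 (0.537 against 0.543) and RNA5SP202 (0.0733 against 0.145). Of the 53 genes, 8 had no listed IgG site.

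Sequence shared with other loci was frequent. For 92 of the 282 sites (32.6%), the 30 nt that follow the site occurred at more than 1 place of the genome. In MT-RNR2 it was 47 of 127 (37.0%), in ACTB 8 of 12, in EIF5A 5 of 7 and in HSP90AA1 3 of 5, but in PLEC 1 of 46. How reads that fit several places were assigned is not given in the sources used here, so the scores of these genes are uncertain to that extent.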

How the data were processed

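PDCD4 and IgG iCLIP libraries of MCF10A cells, with 2 replicates each, were the samples. According to the methods, the authors used iCount with Ensembl (release 88) and, ahead of peak calling, removed IgG positions from the PDCD4 libraries and merged these. The deposited lists give for each 1-nt site a raw count of cDNAs, called the score here, without normalization. The methods also keep scores greater than 5, a filter that the deposited PDCD4 list does not show. The treatment of multi-mapping reads is not given in the sources used here.

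Sites with a score above 10 were taken from the PDCD4 list. The members, gene lists and measures were chosen with earlier results of these data known. Sites were placed on their strand in GENCODE release 44 (GRCh38), taking coding sequence first, then either UTR (3′ before 5′), non-coding exons and introns. Gene names are those of the deposited list. Classes put mitochondrial, nuclear rRNA (with the RefSeq precursors on chromosome 21) and small RNA before mRNA. Clusters join sites at most 20 nt apart. Bases and GC were read on the transcribed strand over 21 nt, IgG sites within 10 nt. Downstream stretches of 30 nt were looked up genome-wide, and up to 2 mismatches counted as an rRNA match. Genes were named if they held at least 2 members or 1 of the 20 highest scores, and single-site genes were named outside this rule. Values per 10000 divide a gene's cDNAs by the list total. No p-value was computed. Window, cluster and interval code was tested on simulated data. Python 3.11.15, numpy 2.4.6, pandas 2.3.3, scipy 1.17.1, pysam 0.24.0 and matplotlib 3.10.9 were used. The alternatives were other thresholds, distances, windows, region orders and transcripts, leaving out the mitochondrial genome or PLEC, and 1 site per cluster. RNA abundance and the study's other assays were not analysed here.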

Additional observations from a re-analysis of the deposited data

How the results depend on the processing

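No paired analysis was possible because each deposited list pools its replicates, so that no replicate could be blocked or left out. The composition moved with the score threshold. The mitochondrial rRNA share of 47.9% became 9.18% for scores above 5, 71.2% above 15 and 77.1% above 20, and the MT-RNR2 share of 45% became 8.16%, 71.2% and 77.1%. The share with a neighbour within 20 nt (66.7%) became 27.0% above 5 and 75.4% above 15, and the uridine share at the site (29.1%) became 38.6% above 5. With 1 site per cluster, mitochondrial rRNA held 17.6% and MT-RNR2 14.0%, behind mRNA exons at 59.6%. By summed score they held 58.3% and 56.4%. Without PLEC, mitochondrial rRNA held 57.2% and 72.5% of sites had a neighbour. Without the mitochondrial genome its share was 0.0% by construction, also without both, the neighbour share fell to 39.6% (40.8% without both), the IgG share rose to 20.1% (24.5% without both) and uridine reached 40.8% without both. A neighbour within 10 nt was present for 59.9%. The IgG share of 15.2% was 1.06% at 0 nt, 8.16% at 5 nt, 34.0% at 25 nt and 48.6% at 50 nt, and 2.84% for IgG scores above 5. GC content stayed within 1 SD of 46.1% in every alternative, from 42.9% to 52.1%. The mRNA exon share of 36.2% was 57.5%, 15.3% and 12.9% at these thresholds, 70.8% without the mitochondrial genome, 24.2% without PLEC and 24.1% with ncRNA exons first. The ncRNA region share of 54.6% lay between 12.5% without the mitochondrial genome and 82.9% above 20. The adenine share after the site, examined after the data were seen, ranged from 49.6% to 67.6%. Scores are small counts, and without replicates only counting error could be given.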
